A study of Rattus norvegicus with 20 samples.

Results

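The response of femoral gene expression to the P segment of chromosome 4 was compared between the P and NP genetic backgrounds. The comparison was the interaction of segment and background, that is (P minus P.NP) minus (NP.P minus NP) on the log2 scale, and it used 20 of 20 arrays, 5 rats per strain, with strains taken from the sample titles. Of 18625 probe sets tested, 59 were called in the interaction at a false discovery rate (FDR) of 10%, 38 of them positive and 21 negative. P rats are the inbred alcohol-preferring strain. P.NP rats are congenic rats that carry the NP segment of chromosome 4 on the P background, and NP.P rats carry the P segment on the NP background. NP rats are the inbred alcohol-nonpreferring strain. All rats were 4 weeks old, and the labels give no treatment. Each congenic strain was bred by repeated backcrossing to the recipient strain followed by an intercross, so it is homozygous for the donor segment, may keep donor alleles elsewhere, and has its own breeding history. Arithmetically the interaction is also the sum of the P and NP means minus the sum of the P.NP and NP.P means. A segment effect that depends on the background therefore cannot be told apart from a difference between inbred and congenic rats.

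In a reciprocal congenic design the same alleles of a chromosome segment are placed on both backgrounds. A gene that responds to the segment alone changes equally in both arms. A gene whose response depends on alleles elsewhere changes in one arm, by unequal amounts in both, or in opposite directions in the 2 arms. The P and NP rats are known for differing in bone mass as well as in alcohol preference, and the chromosome 4 segment holds a quantitative trait locus (QTL) for bone density. The femur of a young rat holds bone cells, growth cartilage and blood-forming marrow, which makes granulocytes, platelets, lymphocytes and red cells.

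Whole femur was extracted, and expression was read from the MAS5 signals that the authors deposited, scaled linear intensities of each probe set. The defining genes of bone were bright on every array. The osteoblast gene Bglap (osteocalcin) had signals of 49414 to 68534 and the osteoclast gene Acp5 of 25814 to 44725. The red cell gene Hbb had 55029 to 82047 and the cartilage gene Col2a1 32096 to 77265. The skeletal muscle gene Ckm was also bright, at 39696 to 70740, so the RNA was not free of muscle. Median signals of an array averaged between 299 and 310.1 in the 4 strains, and correlations of log2 signals between rats of a strain ranged from 0.952 to 0.980. Ratios of 3' to 5' signal of Gapdh, a measure of RNA quality, were 1.107 to 1.147 in P and 1.074 to 1.098 in P.NP rats. They were 1.078 to 1.099 in NP.P and 1.0315 to 1.126 in NP rats. The ratios were thus apart, by little, on the P background, while those of beta-actin overlapped on both. Their part in the calls was not tested. P replicate 2 stood apart in cartilage genes, with a mean centred log2 level of −1.59 over 16 markers, against −0.56 or more on every other array. In whole bone RNA, fewer cells of a type and less RNA per cell cannot be told apart. The labels give no litter, cage or batch for the rats, so p-values measure the spread between these rats.

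The 2 arms gave unequal numbers of calls. On the P background 43 probe sets differed between P and P.NP rats (0.231% of those tested), 0.118% higher and 0.113% lower in P rats. On the NP background 429 differed between NP.P and NP rats (2.3%), 0.816% higher and 1.49% lower in NP.P rats. The interaction, which tests the difference between these responses, called 0.317% of probe sets, and 1808 had an unadjusted p under 0.05. By direction, 0.204% were called positive and 0.113% negative. Across the 18625 probe sets the median interaction was 0.01 and the median size, ignoring sign, was 0.14 log2.

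Among the 38 positive calls, both congenic means lay below both inbred means for 29, and the 2 arms had opposite signs for 36. Among the 21 negative calls, both congenic means lay above both inbred means for 14, and the arms had opposite signs for all 21. In both directions the NP arm was more often called by itself. It passed alone for 23 positive and 11 negative calls, against 6 and 5 for the P arm, while both arms passed in opposite directions for 2 and 2, and neither passed for 7 and 3. These counts describe probe sets chosen by the same arms, and no test was made of them. A general test of any difference between the 4 strains called 3390 probe sets, which include all 59, and the interaction held a median of 6.22% of the variation between their strain means.

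**Figure D1:**
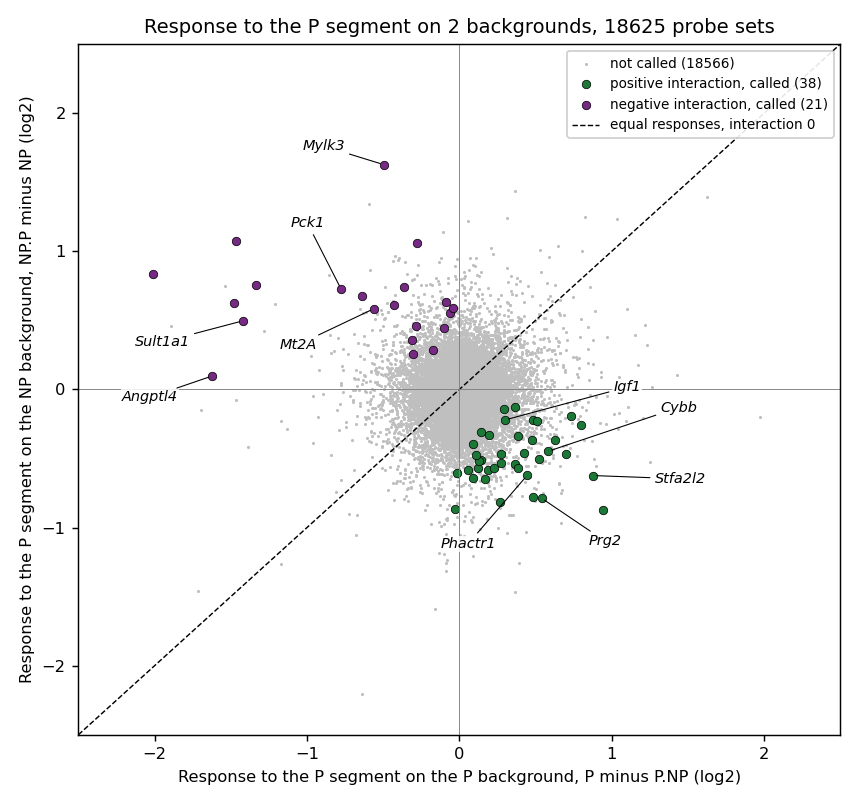
Response to the P segment on the P background (x axis, P minus P.NP, log2) and on the NP background (y axis, NP.P minus NP, log2) for each of 18625 probe sets. On the dashed line both responses are equal and the interaction is 0; the 38 positive calls (green) lie below it and the 21 negative calls (purple) above it, and the 2 arms had opposite signs for 36 of the 38 and for all 21.

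The genes with a positive interaction, lower in one or both congenic strains than in the matching inbred strain, included products of marrow cells. Of 10664 genes read at their brightest probe set, 21 were called positive (0.197%). Stfa2l2, a stefin of the cysteine protease inhibitor family whose relatives are abundant in rodent neutrophils, had the smallest adjusted p of all. Its signals were 4707, 3485, 3494, 3552 and 4205 in P rats, against 2105, 2395, 2489, 1912 and 1703 in P.NP rats. They were 1846, 1749, 1401, 1521 and 1593 in NP.P rats, against 2584, 2569, 2916, 1981 and 2483 in NP rats. On neither background did the congenic and inbred rats overlap, and in both it was the congenic strain that was lower. The response was 0.88 (SE 0.12, adjusted p = 0.00440) on the P background and −0.62 (SE 0.12, adjusted p = 0.0235) on the NP background, an interaction of 1.50 (SE 0.17, adjusted p = 0.00110). Stefin genes have near-identical copies, so the probe set may read more than 1 of them.

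Eosinophil genes showed the same sign. Prg2, the major basic protein of eosinophil granules, had signals of 15977, 13107, 9862, 12988 and 15414 in P rats, against 8388, 10162, 10228, 6501 and 11241 in P.NP rats, and 18598, 17318, 12064, 13685 and 19615 in NP.P rats, against 22227, 31460.3, 31299, 28389 and 25761 in NP rats. All 5 NP.P rats lay below all 5 NP rats, while P replicate 3 lay within the range of the P.NP rats. The interaction of Prg2 was 1.33 (SE 0.24, adjusted p = 0.0282). Epx, eosinophil peroxidase, ranged over 2607 to 5102 in P and 2452 to 3547 in P.NP rats, and over 3970.1 to 6292 in NP.P and 8253 to 10898 in NP rats, with an interaction of 1.09 (SE 0.23, adjusted p = 0.0748). Its groups overlapped on the P background and were apart on the NP background, and its call was lost when any 1 of 15 arrays was left out. Both eosinophil genes were also lower on the P background than on the NP background, with a mean difference over the strains of each background of −0.93 log2 for Prg2 and −1.06 log2 for Epx.

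Cybb, the catalytic subunit of the phagocyte NADPH oxidase, had responses of similar size and opposite sign in the 2 arms. It had signals of 5427, 7347, 6353, 6012 and 5993 in P rats, against 4050.4, 4397, 5198, 3801 and 3437 in P.NP rats. With the NP background it had 5731, 4255, 6191, 5022 and 4659 in NP.P rats, against 7239.8, 7536, 7989, 7061 and 5416 in NP rats. All P.NP rats lay below all P rats, and the NP.P and NP rats overlapped. The interaction was 1.03 (SE 0.18, adjusted p = 0.0266), the P arm passed narrowly at 0.58 (SE 0.13, adjusted p = 0.09998) and the NP arm did not at −0.45 (SE 0.13, adjusted p = 0.104). A second Cybb probe set gave an interaction of 0.90 (adjusted p = 0.0282), but there the arms were called the other way round. Its NP arm passed at −0.54 (adjusted p = 0.0320) and its P arm did not at 0.36 (adjusted p = 0.372).

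Fcnb, ficolin B, a lectin of the complement system made by myeloid cells, ranged over 8409.5 to 10980.2 in P and 7810.1 to 9938 in P.NP rats, and over 5215 to 7258 in NP.P and 8258 to 9288 in NP rats. Only the NP arm passed, at −0.51 (SE 0.09, adjusted p = 0.0141), and the interaction was 0.65 (SE 0.13, adjusted p = 0.0667). Casp1, the protease of the inflammasome, ranged over 1175 to 1310.4 in NP.P and 1358 to 1747 in NP rats, and had an interaction of 0.49 (SE 0.11, adjusted p = 0.0748). The Fcnb and Casp1 groups did not overlap on the NP background, and both calls were lost when any 1 of 10 (Fcnb) or 14 (Casp1) arrays was left out.

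Most genes of the granulocyte list had a positive interaction. Of 13 measured markers 12 had a positive interaction and 3 were called (Prg2, Fcnb and Epx), against 0.197% of all genes called positive. Their median was 0.41 log2, against 0.01 over all probe sets tested. The neutrophil granule genes Camp and Lcn2 had interactions of 0.66 (adjusted p = 0.123) and 0.43 (adjusted p = 0.257) and were not called. Lcn2 differed mostly by background, with mean signals of 902 in P and 856 in P.NP rats, against 10795 in NP.P and 13720 in NP rats. It is 1 of the 13 markers in the list's score, so it adds to the gap in score between the backgrounds. The score of the list, the mean centred log2 level of its markers in a rat, ranged from −0.33 to 0.01 in P and from −0.49 to −0.04 in P.NP rats. It ranged from −0.14 to 0.18 in NP.P and from 0.29 to 0.54 in NP rats. The score thus separated the rats fully on the NP background but not on the P background. Since 3 of the called genes are in the list, their part in the score and its part in the calls were not tested apart. With the score as a covariate 1 call was left, and none of the 29 named genes that had been called.

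**Figure D2:**
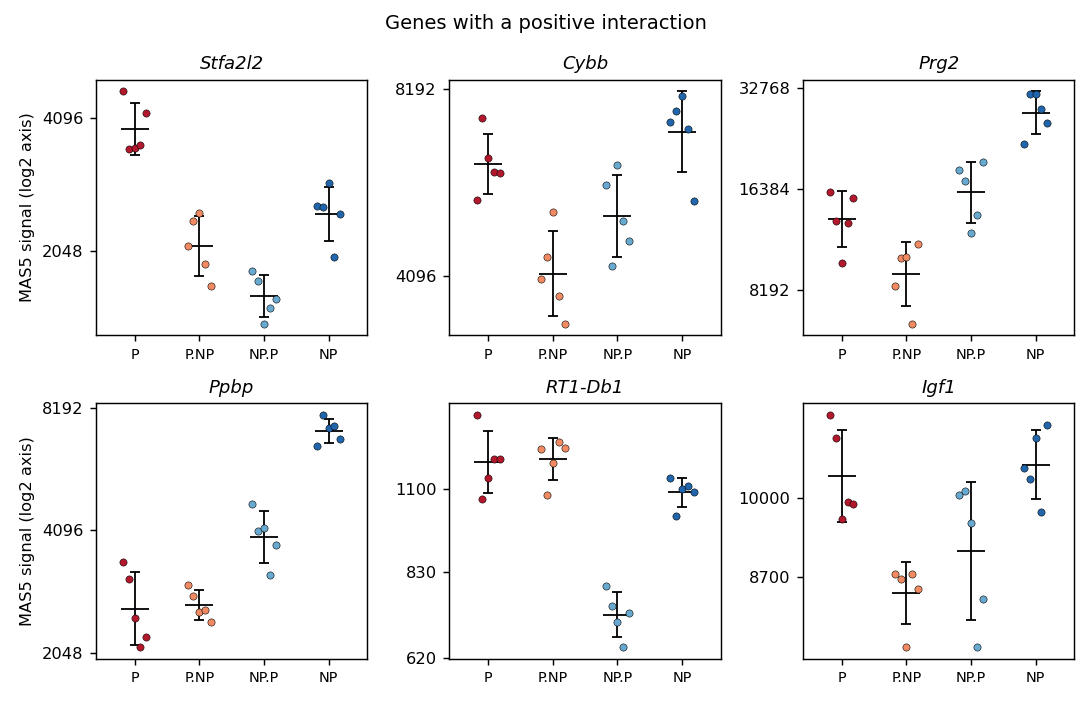
MAS5 signal (y axis, log2 scale) of 6 genes with a positive interaction, 1 point per rat, in P, P.NP, NP.P and NP rats; bars give the mean and SD of the log2 signals of 5 rats. Stfa2l2 was lower in the congenic strain on both backgrounds, while Ppbp and RT1-Db1 were lower in NP.P rats than in NP rats and overlapped between P and P.NP rats.

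Platelet and clotting genes were represented by a pair of calls. Ppbp, the platelet basic protein from which the chemokine Cxcl7 is cut, ranged over 2111 to 3425 in P and 2437 to 3011 in P.NP rats, and over 3182 to 4764 in NP.P and 6614 to 7885 in NP rats. The P.NP range lay inside the P range, while on the NP background the rats did not overlap. The interaction was 0.84 (SE 0.18, adjusted p = 0.0735). F5, coagulation factor V, also changed on the NP background alone (−0.58, SE 0.09, adjusted p = 0.00497), with an interaction of 0.64 (SE 0.13, adjusted p = 0.0684). Of 13 platelet markers measured, Ppbp alone was called and 12 had a positive sign, with a median of 0.19, and platelet scores were −0.31 to 0.02 in P, −0.12 to −0.04 in P.NP, −0.30 to 0.08 in NP.P and 0.28 to 0.39 in NP rats.

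MHC class II genes encode the molecules that present peptides to helper T cells. RT1-Db1, a class II beta chain, had signals of 1416, 1066, 1145, 1219 and 1222 in P rats, against 1260.4, 1081, 1204, 1295 and 1266 in P.NP rats. It had 792, 739.6, 701, 643 and 723 in NP.P rats, against 1145, 1005, 1103, 1111 and 1092 in NP rats. The P and P.NP rats overlapped, and every NP.P rat lay below every rat of the other 3 strains. The interaction was 0.59 (SE 0.11, adjusted p = 0.0377), with the P arm at −0.01 (SE 0.08, adjusted p = 0.995) and the NP arm at −0.60 (SE 0.08, adjusted p = 0.00101). Another RT1-Db1 probe set gave 0.57 but was not called (adjusted p = 0.752). Class II genes are highly polymorphic, so probes may read the P and NP alleles unequally, which bears on comparisons between the backgrounds. RT1-Db1 lies outside the segment, so rats of an arm share its alleles unless donor alleles were kept there.

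All 8 class II genes measured had a positive interaction, and RT1-Db1 was the one called. The invariant chain Cd74 had 0.57 (adjusted p = 0.146), RT1-Da 0.60 (adjusted p = 0.146) and RT1-Ba 0.73 (adjusted p = 0.221). In the NP arm Cd74, RT1-Db1, RT1-Ba and RT1-Da were called lower in NP.P rats than in NP rats, by 0.57, 0.60, 0.77 and 0.52 log2, and in the P arm none was called. Over all probe sets tested, 1.49% were called lower in NP.P rats in that NP arm. The list's median interaction was 0.56. Markers of other white cells lay on the same side without a call, with medians of 0.42 over 10 B lymphoid, 0.54 over 8 T and NK lymphoid and 0.47 over 9 mast cell and basophil genes. Macrophage and monocyte genes had a smaller median of 0.16 over 16 genes, 12 of them positive and none called.
The promoter of RT1-Db1 is shown because class II genes share a conserved upstream module, of which the Y box CTGATTGG is 1 element. The 250 bases before the annotated start (RefSeq, GRCr8, chr20:4560163-4560412, minus strand) hold it at bases −83 to −76 from the start, in capitals; searched on both strands, it was found in 3.19% of 33469 rat promoter windows of this length.
RT1-Db1: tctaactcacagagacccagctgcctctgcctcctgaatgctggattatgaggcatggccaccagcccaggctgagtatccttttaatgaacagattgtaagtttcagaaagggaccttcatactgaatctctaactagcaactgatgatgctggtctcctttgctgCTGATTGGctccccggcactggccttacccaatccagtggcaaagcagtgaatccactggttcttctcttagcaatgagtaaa

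Igf1, insulin-like growth factor 1, a growth signal for bone and cartilage, was the 1 call of 15 genes measured in the growth hormone and IGF list. Its signals were 11586, 11118, 9639, 9928 and 9889 in P rats, against 8734, 8661, 7675, 8736 and 8514 in P.NP rats. They were 10062, 10125, 9572, 7676 and 8357 in NP.P rats, against 10547, 10338, 11126, 9747 and 11379 in NP rats. All P.NP rats lay below all P rats, and NP.P replicates 1 and 2 lay within the NP range. The interaction was 0.52 (SE 0.12, adjusted p = 0.0945), neither arm passed by itself, and the call was lost when any 1 of 17 arrays was left out. A pair of other Igf1 probe sets gave 0.43 (adjusted p = 0.484) and 0.37 (adjusted p = 0.155). Igf2 had the opposite sign, −0.90 (adjusted p = 0.146), and the list's median was −0.08.

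The other named genes with a positive interaction have varied roles. Phactr1, a regulator of actin and of protein phosphatase 1, was lower in NP.P rats than in NP rats (−0.62, SE 0.13, adjusted p = 0.0337) and had an interaction of 1.07 (SE 0.19, adjusted p = 0.0282). Ripor2 had 0.74 (SE 0.14, adjusted p = 0.0351), though its other probe set gave 0.33 (adjusted p = 0.768). Slc16a6, a monocarboxylate transporter family member, passed in the P arm and not in the NP arm, at 0.37 (SE 0.06, adjusted p = 0.0228) in the P arm. All its P rats (1617 to 1875) lay above all its P.NP rats (1294 to 1473), and the interaction was 0.49 (SE 0.09, adjusted p = 0.0327), against 0.27 (adjusted p = 0.513) at another probe set. Otud1, a deubiquitinase, also passed in the P arm alone, at 0.51 (SE 0.11, adjusted p = 0.09998), with an interaction of 0.74 (SE 0.16, adjusted p = 0.0748). Fchsd2, a membrane-bending endocytic protein, had an interaction of 0.45 (SE 0.10, adjusted p = 0.0748). Further positive calls outside the rule for named genes were Mknk1, Siglec5, Nrgn, Apol3-ps1 and Reln, between 0.43 and 0.95 log2, and Acsl5, Lmo4 and Med1 at probe sets other than their brightest. Gda and Glul were called negative at such probe sets, at −0.46 and −0.67 log2.

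A probe set without a gene symbol was the only 1 of 18625 in which all 10 congenic rats lay below all 10 inbred rats, and none showed the reverse. It had signals of 321, 216, 247, 253 and 227 in P rats, against 164, 139, 91.3, 124 and 143 in P.NP rats, and 99, 148, 115, 172 and 112 in NP.P rats, against 206, 218, 177, 260.1 and 326 in NP rats. Its interaction was 1.82 (SE 0.26, adjusted p = 0.00400). It was singled out after its values were seen, and its signals are low on this array.

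The genes with a negative interaction, higher in one or both congenic strains, were fewer. Of 10664 genes 13 were called (0.122%), with interactions between −2.12 and −0.55 log2. Mylk3, the myosin light chain kinase of heart muscle, had signals of 211, 245, 387, 267 and 313 in P rats, against 440.0, 423, 335, 403 and 372 in P.NP rats. Signals were 770.4, 1080.4, 827, 1167 and 1267 in NP.P rats, against 228, 274, 323, 392 and 458 in NP rats. Every NP.P rat lay above every rat of the other 3 strains, while the P and P.NP rats overlapped. The interaction was −2.12 (SE 0.27, adjusted p = 0.00183), with the NP arm at 1.63 (SE 0.19, adjusted p = 0.000277), the largest NP arm of the named genes. A dimmer Mylk3 probe set, below the signal filter, had −1.51. The 22 skeletal muscle markers had a median interaction of −0.11 and none was called.

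Mt2A, a metallothionein that binds zinc and copper and is induced by metals and glucocorticoids, was higher in the congenic strain in both arms. It had signals of 2759.6, 3225, 3129.7, 3042 and 3576 in P rats, against 4531, 3468, 6177, 5068 and 4326 in P.NP rats. They were 5519, 5271, 5823, 5208 and 4991 in NP.P rats, against 3229, 3249, 3359, 3800.2 and 4355 in NP rats. The P and P.NP rats overlapped at 1 rat each, and the NP.P and NP rats did not overlap. The P arm was −0.56 (SE 0.12, adjusted p = 0.0946), the NP arm 0.58 (SE 0.12, adjusted p = 0.0310) and the interaction −1.15 (SE 0.17, adjusted p = 0.00788).
Its promoter is shown because metallothionein genes are switched on through metal response elements, repeats of a short core bound by the factor MTF1. Both core sequences TGCACNC and TGCGCNC were searched on both strands of the 250 bases before the start (RefSeq, GRCr8, chr19:10838709-10838958, minus strand), and the 4 matches are in capitals. At least 1 match was found in 20.6% of 33469 promoter windows, and 4 or more in 0.266%.
Mt2A: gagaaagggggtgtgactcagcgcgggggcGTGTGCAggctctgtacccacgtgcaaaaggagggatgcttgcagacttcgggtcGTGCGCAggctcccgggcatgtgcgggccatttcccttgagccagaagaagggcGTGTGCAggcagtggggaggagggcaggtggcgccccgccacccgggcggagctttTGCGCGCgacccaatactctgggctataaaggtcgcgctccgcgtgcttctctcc

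Sult1a1, a sulfotransferase of phenols and drugs, changed mainly on the P background. It had signals of 697, 916, 1280.3, 1627 and 1613 in P rats, against 3050.2, 2371, 3705, 3483 and 3152 in P.NP rats. It had 2048, 2205, 2908, 2832 and 2259 in NP.P rats, against 1678, 2572, 1507, 1334 and 1733 in NP rats. Every P rat lay below every P.NP rat, and NP replicate 2 lay within the NP.P range. The P arm was −1.42 (SE 0.22, adjusted p = 0.00885), the NP arm 0.50 (SE 0.22, adjusted p = 0.319) and the interaction −1.92 (SE 0.31, adjusted p = 0.0123).

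Chac1, an enzyme that breaks down glutathione and is a target of the stress factor ATF4, was called on the NP background alone. It had signals of 865, 841, 1185, 1145 and 855 in P rats, against 1123, 1826, 1309, 1951 and 1483 in P.NP rats. They were 1521, 1389, 2101, 1823 and 1582 in NP.P rats, against 1127, 1104, 1187, 922 and 901 in NP rats. On the NP background the rats did not overlap, and on the P background P.NP replicate 1 lay within the P range. The P arm was −0.64 (SE 0.15, adjusted p = 0.163) and was not called, the NP arm was 0.68 (SE 0.15, adjusted p = 0.0450) and the interaction −1.32 (SE 0.22, adjusted p = 0.0162), and 25 measured genes of glutathione synthesis and transfer had a median of −0.04 with no call.
The Chac1 promoter is shown for the composite ATF4 element that controls such genes, TTGCATCA. In the 250 bases before the start (RefSeq, GRCr8, chr3:126795881-126796130, plus strand) it occurred once on either strand, at bases −167 to −160, in capitals, and it was found in 0.693% of the promoter windows.
Chac1: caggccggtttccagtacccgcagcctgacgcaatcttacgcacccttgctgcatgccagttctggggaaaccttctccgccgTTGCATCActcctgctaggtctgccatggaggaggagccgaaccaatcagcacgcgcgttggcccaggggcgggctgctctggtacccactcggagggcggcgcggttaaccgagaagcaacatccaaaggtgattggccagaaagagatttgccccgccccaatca

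Pck1, phosphoenolpyruvate carboxykinase, which makes glucose in liver and glycerol in fat cells, had signals of 919, 766, 1268, 997 and 666 in P rats, against 1211, 1341, 2063, 1686 and 1549.9 in P.NP rats. On the NP background it had 1915, 3730.3, 1978, 1997 and 1891 in NP.P rats, against 1275, 2099, 1027, 922 and 1691 in NP rats. In each arm a single inbred rat reached the congenic range, and NP.P replicate 2 was far above the other NP.P rats. The interaction was −1.50 (SE 0.34, adjusted p = 0.0865), neither arm passed by itself, and the call was lost when any 1 of 16 arrays was left out.
The Pck1 promoter is shown for its cyclic AMP response element, through which fasting hormones act, searched on both strands as TTACGTCA. The 250 bases before the start (RefSeq, GRCr8, chr3:182348322-182348571, plus strand) hold it once, at bases −93 to −86, in capitals, and 0.75% of the promoter windows hold it.
Pck1: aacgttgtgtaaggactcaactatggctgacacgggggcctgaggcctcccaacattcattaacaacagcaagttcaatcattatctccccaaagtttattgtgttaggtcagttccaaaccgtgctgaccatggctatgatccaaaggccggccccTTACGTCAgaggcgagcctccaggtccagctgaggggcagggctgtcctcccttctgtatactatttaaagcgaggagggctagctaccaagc

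Angptl4, a secreted inhibitor of lipoprotein lipase, had signals of 612, 406, 1259, 782 and 914 in P rats, against 1722, 2547, 3176, 2666 and 1661 in P.NP rats. It had 1341, 1922, 1650.0, 1572 and 1777 in NP.P rats, against 917, 1862, 1303, 1686 and 2261 in NP rats. All P rats lay below all P.NP rats, while the NP.P range lay inside the NP range. The P arm was −1.62 (SE 0.27, adjusted p = 0.0192), the NP arm 0.10 (SE 0.27, adjusted p = 0.925) and the interaction −1.72 (SE 0.38, adjusted p = 0.0865). Its call was lost when any 1 of 15 arrays was left out.

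Pdk4, which shuts off glucose oxidation by pyruvate dehydrogenase, and Ucp3, a mitochondrial carrier of muscle, missed the threshold of the interaction. Pdk4 had signals of 2011, 2040.0, 8452, 7004 and 6097 in P rats, against 11816, 18944, 20008, 15452 and 14963 in P.NP rats, and 9756, 8619.7, 16101, 15821 and 12009.8 in NP.P rats, against 7229.9, 19029, 6285, 7272 and 8420.1 in NP rats. The lowest were P replicates 1 and 2, and NP replicate 2 stood far above the other NP rats. Its interaction was −2.35 (SE 0.54, adjusted p = 0.107) and its P arm −1.89 (SE 0.38, adjusted p = 0.0570). Ucp3 ranged over 358 to 1014 in P and 1648 to 2458 in P.NP rats, and over 882 to 1370.5 in NP.P and 1068 to 2148 in NP rats, the highest again NP replicate 2. Its interaction was −1.54 (SE 0.38, adjusted p = 0.129) and its P arm −1.69 (SE 0.27, adjusted p = 0.0113). Without NP replicate 2 or without P replicate 3 the interaction of both genes passed.

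Of 17 genes measured in the fasting-type fuel list, Angptl4 was called in the interaction, and Pdk4, Ucp3 and Angptl4 were called lower in P than in P.NP rats. Over all probe sets tested, 0.113% were called lower in P than in P.NP rats. None of the 17 genes was called in the NP arm. The median interaction was −0.14, and the fatty acid oxidation genes Cpt1b, Acadm and Hadha had −0.26, 0.23 and 0.05, none called. Pck1 is also in the adipocyte list, which had a median of −0.38 over 12 genes with Pck1 its 1 call. Adipocyte scores were −0.25 to −0.06 in P, −0.17 to 0.25 in P.NP, 0.10 to 0.42 in NP.P and −0.28 to 0.29 in NP rats, and cartilage markers, with no call among 16, had a median of −0.47. That cartilage median includes P replicate 2, whose cartilage score was −1.59, against −0.09 to 0.40 in the other P rats. With the adipocyte score as a covariate 2 calls were left, Stfa2l2 and Mylk3. Tsc22d3 (GILZ), a glucocorticoid-induced regulator, had an interaction of −0.55 (adjusted p = 0.123), and Arrdc2, an arrestin family member, of −1.10 (adjusted p = 0.129), so neither was called.

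**Figure D3:**
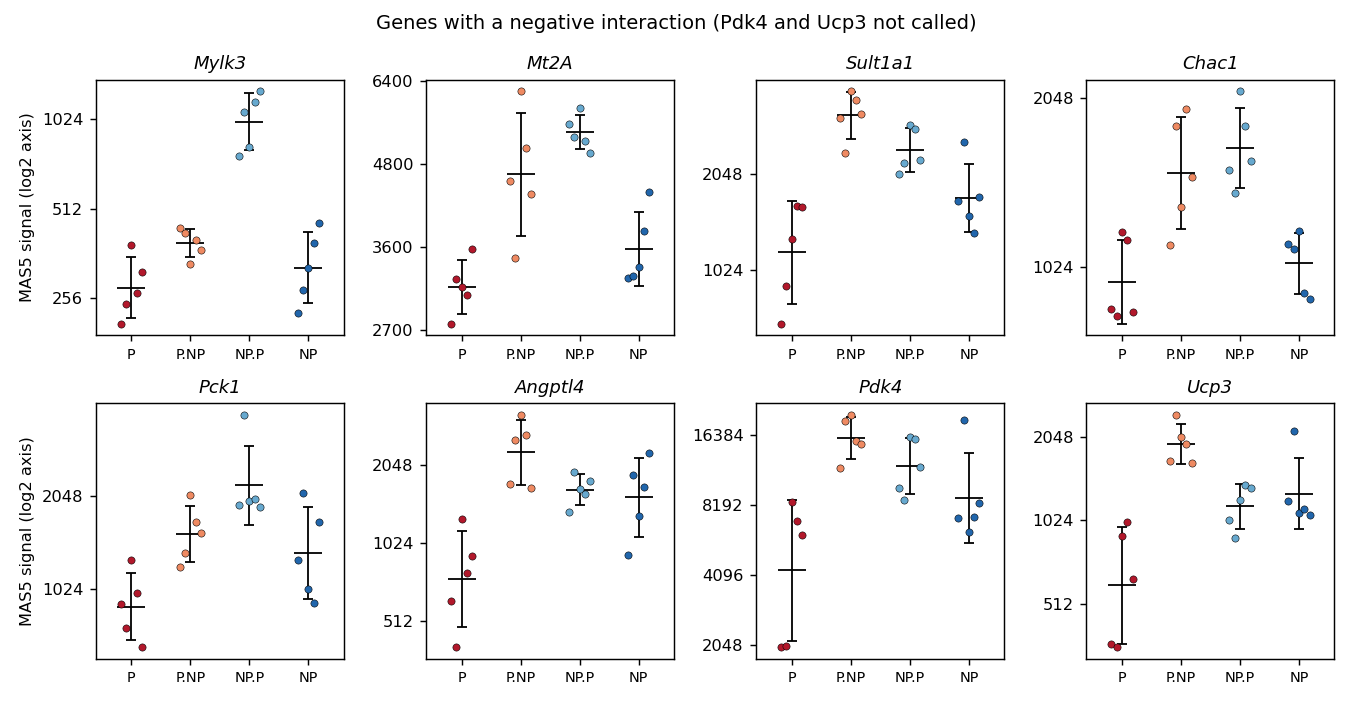
MAS5 signal (y axis, log2 scale) of 8 genes with a negative interaction, 1 point per rat, in P, P.NP, NP.P and NP rats; bars give the mean and SD of the log2 signals of 5 rats. Mt2A was called higher in the congenic strain on both backgrounds and Chac1 on the NP background alone, while Sult1a1, Angptl4, Pdk4 and Ucp3 differed mainly between P and P.NP rats; Pdk4 and Ucp3 were not called in the interaction.

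Most of the remaining named genes with a negative interaction were called on the NP background alone. Clic2, a chloride intracellular channel family protein, ranged over 2541 to 3448 in P and 3243 to 4491 in P.NP rats, and over 6724 to 11657 in NP.P and 3675 to 5971 in NP rats, with an interaction of −1.34 (SE 0.22, adjusted p = 0.0137). Its NP.P rats lay above every rat of the other 3 strains. Ptgfrn, a membrane protein that lowers prostaglandin F2-alpha binding to its receptor, had an NP arm of 0.56 (SE 0.07, adjusted p = 0.00104) and an interaction of −0.62 (SE 0.10, adjusted p = 0.0167). Alox15, the 12/15-lipoxygenase, which in mice is known as a regulator of bone mass, ranged over 19074 to 24546 in P and 21818 to 26727 in P.NP rats, and over 36263 to 51801 in NP.P and 23230.0 to 32346 in NP rats. On the NP background the Alox15 ranges were apart, and the interaction was −0.72 (SE 0.15, adjusted p = 0.0748). Tinagl1, a matrix protein, had an interaction of −0.63 (SE 0.14, adjusted p = 0.0748). Mecr, a reductase of mitochondrial fatty acid synthesis, had −0.56 (SE 0.11, adjusted p = 0.0427), with neither arm past the threshold. Arhgef37 had an NP arm of 0.44 (SE 0.08, adjusted p = 0.0133) and an interaction of −0.55 (SE 0.11, adjusted p = 0.0684). Klhl12 had an interaction of −0.36 (SE 0.09, adjusted p = 0.135), which was not called.

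The QTL region itself was set to run on chromosome 4 between the genes Arf5 and Ppp4r2. In it 2 of 384 probe sets tested were called in the interaction (0.521%, against 0.317% of all probe sets tested), those of Gng12 and Tia1. Gng12, a G protein gamma subunit, had signals of 1610.0, 1518, 1679, 1817 and 1951 in P rats, against 2759, 1903, 2344, 1857 and 2235 in P.NP rats, and 3333, 4656, 2912, 3858 and 5043 in NP.P rats, against 2294, 1932, 2216, 2916 and 2329.8 in NP rats. The NP.P rats were the highest, and they overlapped the NP rats by 1 rat. The interaction was −1.11 (SE 0.21, adjusted p = 0.0367), but a second Gng12 probe set gave 0.03 (adjusted p = 0.955). Tia1, an RNA-binding repressor of translation found in stress granules, had 1073, 1135, 1127, 1161 and 992 in P rats, against 967, 758, 885, 869.7 and 735 in P.NP rats, and 1107, 728, 1107, 772 and 846 in NP.P rats, against 1107, 1126, 1155, 1198 and 1088 in NP rats. All P.NP rats lay below all P rats, and 2 NP.P rats reached the NP range. The interaction was 0.72 (SE 0.16, adjusted p = 0.0748), lost when any 1 of 15 arrays was left out, and a dim second probe set below the signal filter had −1.42. Next in order were Skap2, 0.45 (adjusted p = 0.152), Tmem140, −0.48 (adjusted p = 0.220), and Npy, 0.43 (adjusted p = 0.243), which were not called. Of 42 measured genes that the study tabulated for this region, chosen there on RNA of these rats, 1 was called, with a median interaction of −0.02. Of 6 measured genes that it tabulated outside the region, Ptgfrn and RT1-Db1 were called; those genes were chosen there by tests of the same arms on these rats, so their calls are not independent evidence of an interaction.

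Bone cell lists held no called gene. The median interaction was −0.03 over 18 osteoblast and osteocyte genes, 5 of them positive, against 0.01 over all probe sets tested. Over 10 osteoclast genes it was −0.15, with 2 of them positive. Erythroid genes had a median of −0.15 over 26 genes with no call, although 7 were called higher in NP.P than in NP rats in that arm. Their scores were −0.15 to 0.01 in P, −0.25 to −0.13 in P.NP, 0.16 to 0.29 in NP.P and −0.07 to 0.11 in NP rats, so the NP.P rats stood above all others. With this erythroid score as a covariate 16 probe sets were called, among them Stfa2l2, Mylk3, Mt2A, Chac1, Cybb and Prg2. The interferon response, Wnt, BMP and TGF-beta, hypoxia, circadian, cell division, ribosomal, oxidative phosphorylation, collagen and heat stress lists each had a median between −0.12 and 0.05 and no call. Signs were uneven in some of these lists. A positive sign was held by 5 of 52 oxidative phosphorylation, 5 of 35 collagen, 6 of 27 cell division and 8 of 31 ribosomal genes. It was held by 7 of 21 hypoxia and 13 of 17 interferon response genes. Genes of a list were read on the same 20 arrays, so their signs are not independent, and they were not tested.

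**Figure D4:**
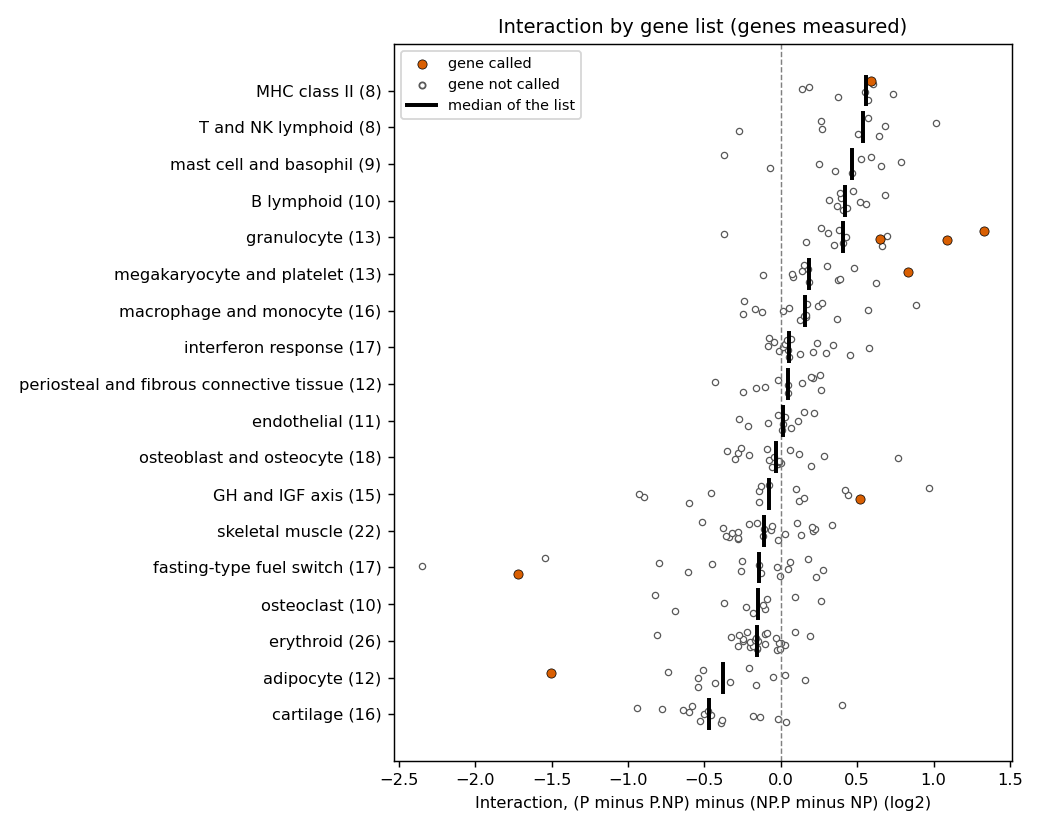
Interaction (x axis, log2) of each measured gene in 18 gene lists, with the number of genes measured in brackets; filled points were called at an FDR of 10% and black bars are medians. White cell lists lie to the right, up to a median of 0.56 for MHC class II, and cartilage and adipocyte genes to the left, at −0.47 and −0.38. The cartilage median includes P replicate 2, which had a cartilage score of −1.59.

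**Figure D5:**
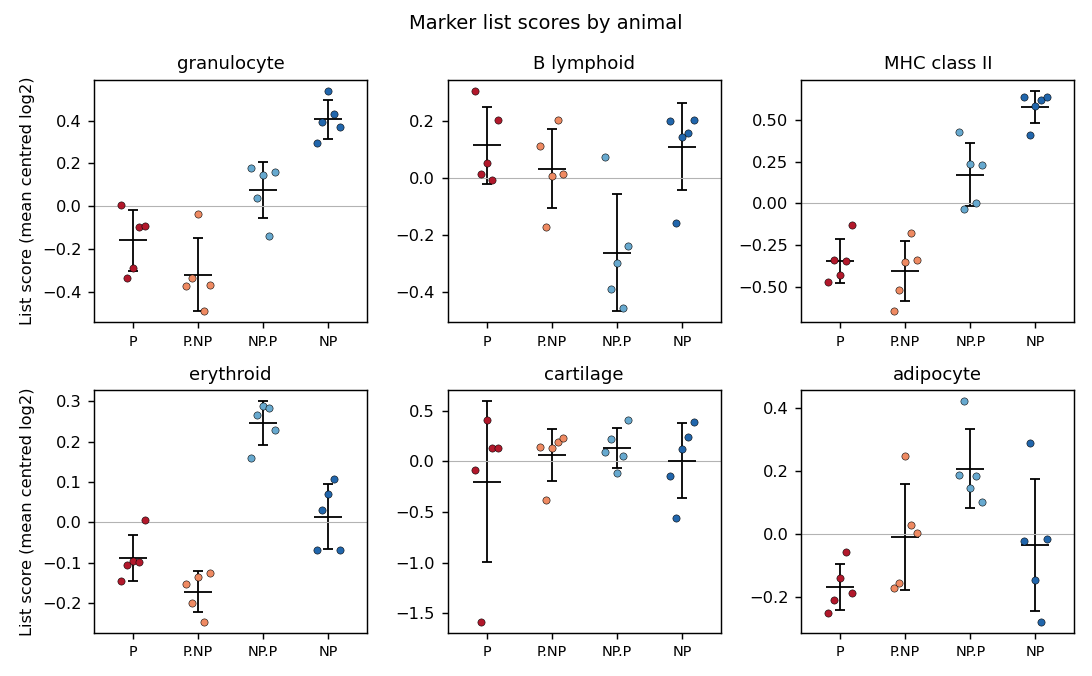
Scores of 6 gene lists (y axis, mean centred log2 level of the list's measured genes), 1 point per rat, in P, P.NP, NP.P and NP rats; bars give the mean and SD of 5 rats. The granulocyte score was lower in NP.P rats than in NP rats without overlap, the erythroid score was highest in NP.P rats, and P replicate 2 had a cartilage score of −1.59.

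The strength of the calls differed among the named genes. The interaction of the 14 with the smallest adjusted p, from Stfa2l2 to RT1-Db1, passed whichever of the 20 arrays was left out. Mecr lost its call without NP replicate 3 or NP.P replicate 2, and each of the other 14 lost its call with any 1 of 8 to 17 arrays left out. The total ran from 21 calls without NP.P replicate 2 to 109 without NP replicate 2, and all 59 were among the 109.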

How the data were processed

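Femur RNA of 20 rats, 5 per strain, had been hybridized to 1 Affymetrix Rat Genome 230 2.0 array each. The authors deposited MAS5 intensities, with every array scaled to an equal trimmed mean (2% of values trimmed); they analysed images with the GCOS software, and per the labels used MAS5. Their own tests used robust multichip average values, which were not used here. Of 31042 probe sets that were not controls, 20826 carried 1 gene symbol, 436 several and 9780 none, and only the first were named. Names and chromosomes are from GRCr8.

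Signals under 1 (190 values) were set to 1 before log2. Probe sets whose mean fell below the 40th percentile, a signal of 169.7, were dropped, and the brightest probe set stood for a gene. A single fit of 4 strain means over 20 arrays was made with limma 3.58.1 in R 4.3.3 (16 residual and 2.78 prior degrees of freedom), with Benjamini-Hochberg adjustment over 18625 probe sets. The code was tested on simulated data. Figures were drawn with Python 3.11.15 and matplotlib 3.10.9. Named genes were the 15 positive and 15 negative with the smallest adjusted p past 10%, or those that passed and the next 5, and called genes of the QTL region, of both arms in opposite directions and of the gene lists. The members, gene lists and tests were chosen with earlier results of these data known. The number of arrays limits the precision. Alternatives were other filters, quantile normalization, an offset, a variance trend, an unequal-variance test, an FDR of 5%, fits of 2 strains, a replicate block, marker scores as covariates, other definitions of the region, all probe sets of listed genes, and each array left out.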

Additional observations from a re-analysis of the deposited data

Results flagged for a closer look

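In 5 of 136 sets of 5 rats (each of 34 named genes in each strain), 1 rat lay far from the other 4, where chance gives about 1 in 20 sets. Pck1 was 3730 in NP.P replicate 2, against 1891 to 1997 in the other NP.P rats. Igf1 was 7675 in P.NP replicate 3, against 8514 to 8736. The other values were from NP replicate 2: Pdk4 at 19030, against 6285 to 8420, Ucp3 at 2148, against 1068 to 1207, and Casp1 at 1358, against 1688 to 1747. Leaving that rat out gave 109 calls in the interaction in place of 59. The 59 probe sets themselves were called by the interaction test of limma at the stated FDR, so some of the calls may be false. That test cannot tell a response to the P segment that differs between backgrounds from a difference between inbred and congenic rats.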

How the results depend on the processing

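Quantile normalization and an offset before the log left the split of calls at 38 positive and 21 negative, and at 38 and 22, and no named gene, read at the same probe set, changed sign under any alternative run. Other probe sets of Tia1 and Gng12 had the opposite sign, at −1.42 and 0.03. The 59 interaction calls became 17 without the filter (7 positive, 10 negative), 127 with a filter at the 60th percentile, 115 with a mean-variance trend, 19 by the unequal-variance test, 25 at an FDR of 5%, and with a score as covariate 16 (erythroid), 164 (skeletal muscle), 1 (granulocyte), 2 (adipocyte) and 35 (cartilage). The last 3 covariates were added after seeing the data. These scores differ between strains, and the cause of the lost calls was not tested. The 2 interaction calls in the QTL region became 0 without the filter, by the unequal-variance test and with the erythroid, granulocyte or adipocyte score, 1 with the cartilage score or at an FDR of 5%, and 5 with the muscle score. Leaving out 1 array gave 1 to 3.

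The 43 P minus P.NP calls became 18 without the filter, 0 by the unequal-variance test, 9, 79, 22 and 15 with the erythroid, muscle, granulocyte and adipocyte scores, 23 at an FDR of 5% and 11 from both strains alone. The 429 NP.P minus NP calls became 132 without the filter, 10 by the unequal-variance test, 0, 736, 5 and 69 with the erythroid, muscle, granulocyte and adipocyte scores, 158 at an FDR of 5% and 66 from both strains alone. With 1 array left out, interaction calls numbered 21 to 109, P minus P.NP calls 16 to 71 and NP.P minus NP calls 119 to 528. Interaction calls were 38 or fewer without 1 of NP replicates 1, 3, 4 and 5, P replicates 1, 2, 4 and 5, NP.P replicates 2 and 4, or P.NP replicates 2, 4 and 5, and reached 93 without NP.P replicate 1. The arms' counts moved most without P.NP replicate 5 (16 P minus P.NP calls), P.NP replicate 1 (71) and P replicate 3 (19), and without NP.P replicate 4 (119 NP.P minus NP calls), NP.P replicate 2 (165) and NP replicate 5 (173).

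Replicate numbers are shared by the strains. In deviations from strain means, 30 same-numbered pairs of rats had a mean correlation of 0.05 (−0.09 to 0.33), and 120 other pairs −0.01. Replicate 2 had the lowest cartilage score in P, P.NP and NP rats (−1.59, −0.38 and −0.56), though not in NP.P rats. It also had the highest skeletal muscle score in P, P.NP and NP rats (0.42, 0.36 and 0.49), again not in NP.P rats. The labels do not say whether same-numbered rats were handled together, and the main fit used no pairing. With the replicate number as a block 54 interaction calls were made, 42 of them shared with the 59; P minus P.NP gave 29, NP.P minus NP 466 and the region 2.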
